A study of Mus musculus with 12 samples.

Results

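A set of 10 genes of the circadian clock was followed across 12 RNA-seq libraries of mouse large peritoneal macrophages: Dbp, Tef, Nr1d1, Nr1d2, Per1, Per2, Per3, Arntl, Nfil3 and Cry1. They are 10 of the 57010 genes in the count table, chosen by symbol, and all 10 were among the 15943 genes that passed the filter on low counts. The list was drawn up because Dbp and Tef stood out between genotypes in earlier work on these libraries. The genotype differences of the 10 members are therefore given as a description: the fit's calls are counted once, beside the share over all genes, and nothing is read from them. The changes with tumour challenge were tested. The naive libraries in which Dbp and Tef stood out are also the baseline of those tests and enter the interaction. A gene picked for a high level in Tim4KO naive cells is more likely to show a fall from it. For Dbp and Tef these tests are therefore not independent of the choice of genes.

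The cells were resident macrophages of the peritoneal cavity (F4/80high MHCIIlow), sorted from female mice that were wild type (WT) or lacked the scavenger receptor Tim4 (Tim4KO). WT naive and Tim4KO naive cells came from mice without tumour cells. WT ID8 and Tim4KO ID8 cells came from mice injected at 8 weeks of age into the peritoneum with ID8ZGO cells, an ovarian tumour line that expresses ZsGreen and OVA, and were taken 24 h later. Each group held 3 libraries, and nothing in the labels says whether each came from a separate mouse, so the spread between libraries may in part be technical. From the injected mice only ZsGreen-positive macrophages were sorted, so challenge and uptake of tumour material are measured together. The age of the naive mice, the strain, the Tim4 allele and the hour of collection are not given in the sources used here. An hour of collection that differed between groups and the effect of genotype or challenge cannot be told apart.

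The clock is a feedback loop of transcription factors that runs in nearly every cell, macrophages included. Arntl (also called Bmal1) pairs with Clock and switches on the Per, Cry, Nr1d, Dbp and Tef genes through E-box elements, and the PER and CRY proteins then shut that pair down. Nr1d1 and Nr1d2 encode REV-ERB nuclear receptors, which repress Arntl, Nfil3 and Cry1. DBP and TEF are activators, and NFIL3 a repressor, of the same D-box element. In a cell population with a running clock the Dbp, Tef, Nr1d and Per genes peak in 1 part of the day, and Arntl, Nfil3 and Cry1 in another. The first 7 are called genes of Dbp phase here and the last 3 genes of opposite phase.

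The clock elements can be read in the promoters of several of these genes. RefSeq promoter windows of 250 bases before the start of transcription (GRCm38.p6) were found for 9 of the 10 genes, with 12 start sites among them. Both strands were searched for the E-box CACGTG, the D-box TTATGTAA and the nuclear receptor element AGGTCA. The E-box lay in 4 of the 12 windows, from 3 of the 9 genes (Cry1, Per1 and Tef), against 6.02% of all 32851 promoter windows. The D-box lay in 1 of the 12, that of Per3, against 0.819% of all windows. The receptor element lay in 3 of the 12, from Nfil3, Nr1d2 and Per1, against 14% of all windows. A match describes the letters and is not a measured binding site. A stretch of 3 of these promoters is shown, 5′ to 3′ on the strand of the gene, with the matches in capitals, because Per1 and Per3 are the members that fell with challenge in both genotypes and Tef is the partner of Dbp. In Per1 (chr11:69098708-69098894, plus strand) the E-box begins 166 bases before the start and the receptor element, on the other strand, 137 bases before it. In Per3 (chr4:151044741-151044915, minus strand) the D-boxes begin 205 and 158 bases before the start. In Tef (chr15:81811201-81811358, plus strand, second start site) the E-box begins 138 bases before the start. No exon of GENCODE vM21 lies in these stretches.
Per1: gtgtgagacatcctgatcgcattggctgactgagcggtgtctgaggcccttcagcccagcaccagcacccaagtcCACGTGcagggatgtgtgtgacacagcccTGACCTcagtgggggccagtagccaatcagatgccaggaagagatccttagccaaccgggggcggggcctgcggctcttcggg
Per3: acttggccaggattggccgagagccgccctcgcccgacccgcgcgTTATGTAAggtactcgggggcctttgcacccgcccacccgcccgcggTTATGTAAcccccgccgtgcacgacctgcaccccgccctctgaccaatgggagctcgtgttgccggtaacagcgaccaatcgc
Tef: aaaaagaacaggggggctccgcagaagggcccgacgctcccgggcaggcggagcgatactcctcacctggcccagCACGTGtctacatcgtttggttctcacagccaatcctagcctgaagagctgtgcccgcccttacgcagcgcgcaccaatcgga

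Library totals ran from 7358559 counts (Tim4KO naive 2) to 23170244 counts (WT ID8 3), and a floor of 3 counts was worth 0.137 to 0.399 CPM (counts for each 1e6 in the library, scaled by TMM). Timd4, the targeted gene, stood at 882 CPM or more in every WT library and at 7.71 CPM or less in every Tim4KO library, so each library fits its genotype label. The 10 markers of large peritoneal macrophages summed to 52200 to 59900 CPM in naive and 24800 to 29600 CPM in ID8 libraries, and none was at 0. That difference lay in Lyz2 (40500 to 47500 CPM in naive and 10700 to 15000 CPM in ID8 libraries), and the other 9 summed to 10100 to 13300 CPM in naive and 13600 to 15900 CPM in ID8 libraries. Summed markers stayed at or below 39 CPM for each of the lists for epithelial or tumour cells, mast cells, neutrophils, lymphocytes of the T and NK lineages, and B cells, and between 53.1 and 117 CPM for small peritoneal macrophages with dendritic cells. WT ID8 3 stood apart: its 10 cell cycle genes summed to 2390 CPM, against 180 to 663 CPM in the other 11 libraries. Where leaving it out moved a member's value most, the value without it is given.

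Genes of Dbp phase were higher in Tim4KO than in WT cells, in naive and in challenged mice, and genes of opposite phase were lower. Over the 7 genes of Dbp phase the median log2 difference, Tim4KO minus WT, was 2.28 in naive and 1.91 in ID8 cells, beside 0.00 and 0.01 over all tested genes. The 3 genes of opposite phase had medians of -0.76 and -0.74. In naive cells all 7 genes of Dbp phase had every Tim4KO library above every WT library, where 7.34% of all tested genes did, and 2 of the 3 opposite genes lay wholly below, where 6.84% did. In ID8 cells the numbers were 6 of 7, beside 7.06%, and 1 of 3, beside 8.56%. By edgeR's adjusted p, Dbp and Tef were called higher in naive cells and no member lower, where 0.0439% of tested genes were called, 0.0251% higher and 0.0188% lower. In ID8 cells Dbp alone was called, where 0.0565% were, 0.00627% higher and 0.0502% lower. DESeq2 called 5 of the 7 and 1 of the 3 in naive cells, among 42 genes in all, and 6 of the 7 and 1 of the 3 in ID8 cells, among 227 genes. Limma voom called 0 members in both, among 3 and 10 genes. These contrasts brought the genes to notice, so nothing is read from the counts. In RNA from sorted pools, fewer cells that express a gene and less RNA per cell cannot be told apart.

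**Figure D1:**
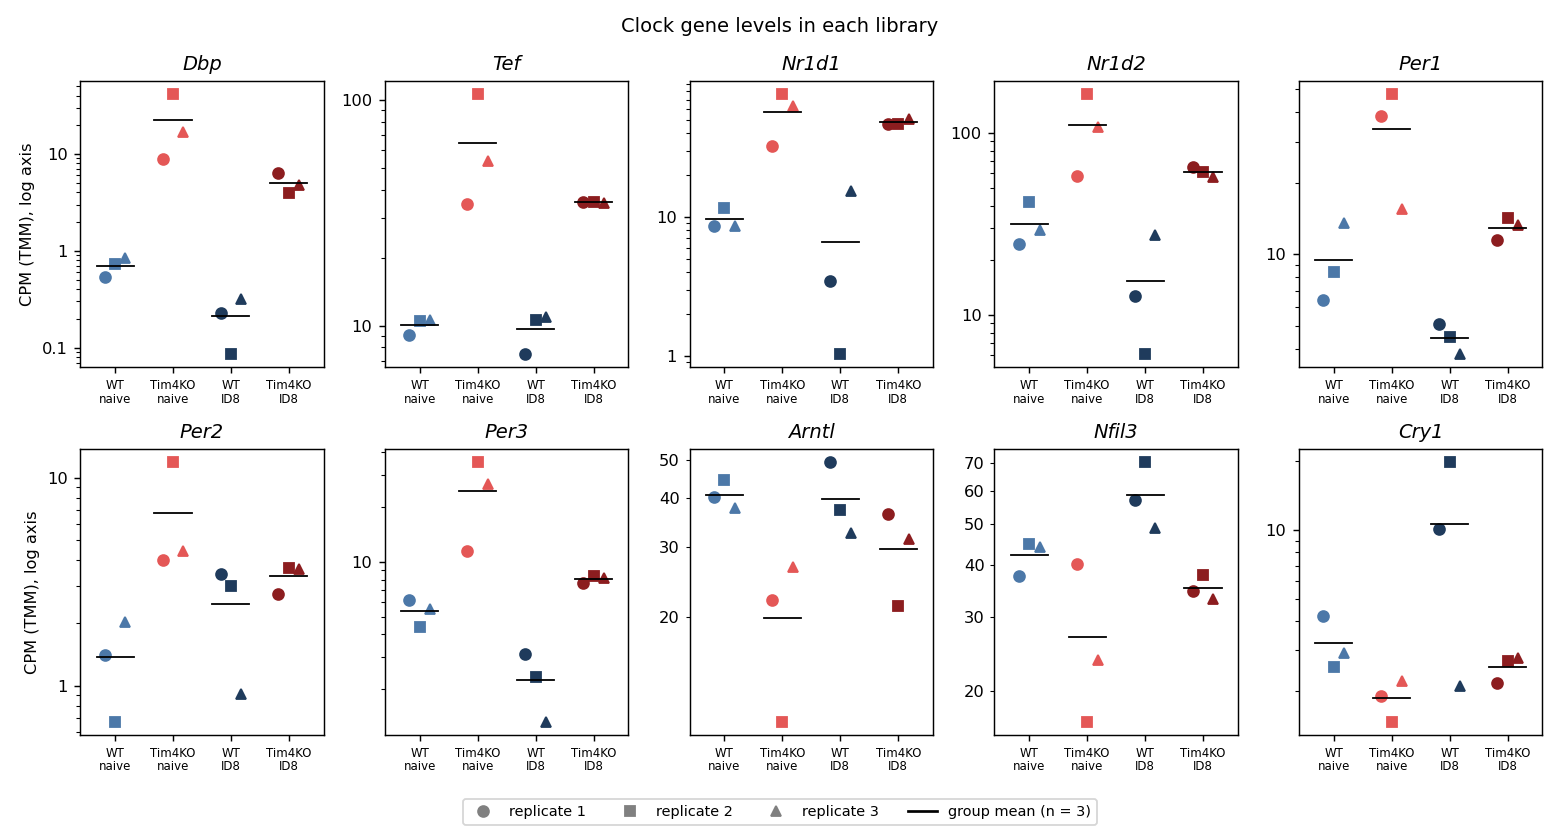
Level of each clock gene in every library, as CPM on a log axis that differs between panels, by group (points are libraries, lines are means of 3). In naive cells all 3 Tim4KO points of Dbp, Tef, Nr1d1, Nr1d2, Per1, Per2 and Per3 sit above all 3 WT points, and WT ID8 3 (triangle) departs from the other WT ID8 points in Nr1d1, Nr1d2, Per2 and Cry1.

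Dbp, the D-box activator, had the largest genotype difference of the 10 genes. It stood at 0.542, 0.735 and 0.838 CPM in the WT naive libraries (5, 11 and 12 counts) and at 8.94, 41.5 and 16.7 CPM in the Tim4KO naive libraries. In challenged cells it was at 0.23, 0.0859 and 0.319 CPM in WT (2, 1 and 7 counts) and at 6.38, 3.97 and 4.73 CPM in Tim4KO. No WT library came near a Tim4KO library in either condition. The fitted log2 difference was 4.93 (SE 0.55, 30.4-fold) in naive and 4.39 (SE 0.64, 21-fold) in ID8 cells. Without Tim4KO naive 2, which had the highest level, the naive difference was 4.15, and without WT ID8 3 the ID8 difference was 5.00. With so few WT counts the folds are loosely set. Per kilobase of exon, Dbp averaged 0.235 CPM in WT naive cells. Olfactory and vomeronasal receptor genes of low level, taken here as a measure of background, gave 0.0569 to 0.147 CPM per kilobase in the same libraries. How much of the WT Dbp signal is such background was not tested.

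Dbp shares 539 bases of exon, 18% of its exonic length, with Sphk2 on the opposite strand, and whether the counting used strand is not stated. Sphk2, a sphingosine kinase, lay at 33.5 to 37.1 CPM in WT naive and 39.8 to 43.5 CPM in Tim4KO naive libraries, with a log2 difference of 0.28 (SE 0.11). In ID8 cells its difference was 0.29 (SE 0.11). Sphk2 was the more abundant of the pair in every library but Tim4KO naive 2, where it stood at 39.8 CPM and Dbp at 41.5 CPM. Its genotype difference was a small part of that of Dbp.

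Tef, the close relative of Dbp that binds the same element, had more counts in every library, and its genotypes did not overlap. It stood at 9.1, 10.5 and 10.6 CPM in WT naive and at 34.4, 106 and 53.6 CPM in Tim4KO naive libraries. In ID8 cells the levels were 7.48, 10.6 and 10.9 CPM in WT and 35.2, 35.4 and 34.9 CPM in Tim4KO. The 3 Tim4KO ID8 libraries were nearly equal, while the 3 Tim4KO naive libraries spanned the widest range of any group. Its log2 difference was 2.67 (SE 0.33) in naive and 1.85 (SE 0.33) in ID8 cells. The antisense gene Gm17597, which overlaps 2.45% of the Tef exons, had 3 counts or fewer in every library.

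Nr1d1 and Nr1d2, the REV-ERB repressors, followed. Nr1d1 was at 8.67, 11.6 and 8.59 CPM in WT naive and at 32.6, 76.7 and 62.5 CPM in Tim4KO naive libraries (log2 difference 2.56, SE 0.71). Among ID8 libraries Nr1d1 was at 3.45, 1.03 and 15.4 CPM in WT and at 46.9, 46.4 and 50.9 CPM in Tim4KO (2.74, SE 0.71). The Tim4KO ID8 libraries lay close together, and WT ID8 3 was the WT library nearest to them. Without it the ID8 difference in Nr1d1 was 4.51. Exons of Nr1d1 overlap those of Thra, a thyroid hormone receptor on the opposite strand, over 8.55% of their length, and Thra differed by 0.20 (SE 0.22) in naive and 0.97 (SE 0.22) in ID8 cells. Nr1d2, which has no such overlap, stood at 24.5, 41.6 and 29.3 CPM in WT naive and at 58.4, 164 and 108 CPM in Tim4KO naive libraries (1.78, SE 0.51). Its ID8 levels were 12.7, 6.1 and 27.4 CPM in WT and 65.5, 61.1 and 57.6 CPM in Tim4KO (1.96, SE 0.53), and 2.75 without WT ID8 3.

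The Period genes, which encode the repressors of the Clock and Arntl pair, were higher in Tim4KO cells too, with Per2 in ID8 cells as the exception. Per1 was at 6.39, 8.41 and 13.6 CPM in WT naive and at 38.4, 47.7 and 15.5 CPM in Tim4KO naive libraries (log2 difference 1.82, SE 0.36). After challenge Per1 was at 5.06, 4.47 and 3.79 CPM in WT and at 11.5, 14.2 and 13.3 CPM in Tim4KO (1.56, SE 0.38). In naive cells the closest approach was WT naive 3 to Tim4KO naive 3. Per3 was at 6.17, 4.41 and 5.52 CPM in WT naive and at 11.5, 35.4 and 26.9 CPM in Tim4KO naive libraries (2.20, SE 0.35). After challenge Per3 was at 3.11, 2.32 and 1.32 CPM in WT and at 7.69, 8.4 and 8.18 CPM in Tim4KO (1.91, SE 0.38). Neither gene's groups overlapped. Per2 was the least abundant Period gene, at 1.41, 0.668 and 2.03 CPM in WT naive and at 4.02, 11.9 and 4.45 CPM in Tim4KO naive libraries (2.28, SE 0.55). In ID8 cells it was at 3.45, 3.01 and 0.913 CPM in WT and at 2.77, 3.69 and 3.63 CPM in Tim4KO (0.51, SE 0.53), and the groups overlapped. Without WT ID8 3, the lowest of them, the Per2 difference in ID8 cells was 0.06 (SE 0.44).

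The genes of opposite phase lay the other way and differed less. Arntl, the positive arm of the loop, was at 40.2, 44.5 and 37.7 CPM in WT naive and at 22, 10.8 and 26.8 CPM in Tim4KO naive libraries (log2 difference -1.02, SE 0.28). Arntl in ID8 cells was at 49.5, 37.4 and 32.7 CPM in WT and at 36.4, 21.3 and 31.6 CPM in Tim4KO (-0.41, SE 0.28), and the groups overlapped. Nfil3, the D-box repressor, was at 37.6, 44.8 and 44.2 CPM in WT naive and at 40.1, 16.9 and 23.8 CPM in Tim4KO naive libraries (-0.64, SE 0.24). Nfil3 in ID8 cells was at 57, 70.3 and 48.9 CPM in WT and at 34.7, 37.9 and 33.2 CPM in Tim4KO (-0.74, SE 0.23). The antisense gene Gm45355, which shares 0.439% of the Arntl exons, had 2 counts or fewer in every library. Nfil3 overlapped between genotypes in naive cells, through Tim4KO naive 1, and did not in ID8 cells. Cry1, a repressor that acts with the PER proteins, was at 4.22, 2.54 and 2.93 CPM in WT naive and at 1.89, 1.46 and 2.2 CPM in Tim4KO naive libraries (-0.76, SE 0.62). In ID8 cells it was at 10.1, 19.8 and 2.1 CPM in WT and at 2.15, 2.68 and 2.77 CPM in Tim4KO (-2.06, SE 0.59). WT ID8 3 fell below all Tim4KO ID8 libraries for Cry1, and without it the difference was -2.58.

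**Figure D2:**
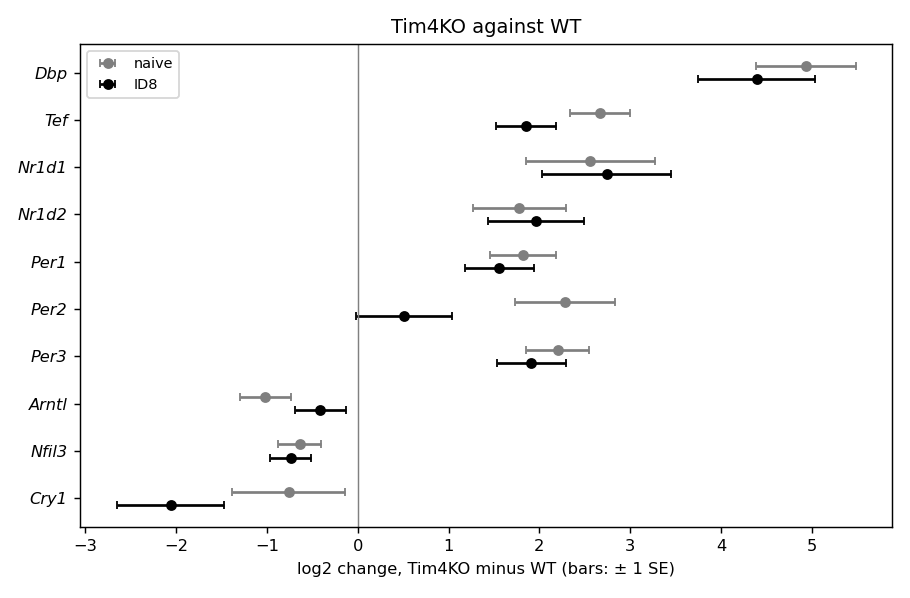
Log2 difference of each clock gene between Tim4KO and WT cells, in naive (grey) and ID8 (black) cells, with bars of 1 SE. The 7 genes of Dbp phase lie to the right of 0, from 0.51 (Per2, ID8) to 4.93 (Dbp, naive), and Arntl, Nfil3 and Cry1 lie to the left.

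The Tim4KO naive libraries differed among themselves. In Tim4KO naive 2 all 7 genes of Dbp phase had the highest level of the 3 Tim4KO naive libraries, and all 3 genes of opposite phase had the lowest. Tim4KO naive 1 had the lowest level of 6 of the 7, and the exception was Per1, which was lowest in Tim4KO naive 3. In no other group did 1 library have the highest level of all 7. WT ID8 3 had the highest level of 4 of the 7 in its group and the lowest of the other 3. Like Tim4KO naive 2, WT ID8 3 had the lowest level of all 3 genes of opposite phase in its group. The ratio of Dbp to Arntl on the log2 scale was -1.28, 1.93 and -0.68 in the Tim4KO naive libraries and -2.49, -2.38 and -2.70 in the Tim4KO ID8 libraries. In WT it was -5.86, -5.66 and -5.26 in naive and -7.03, -7.31 and -6.13 in ID8 libraries. The ratio of Nr1d1 to Arntl was 0.56, 2.81 and 1.22 in Tim4KO naive and 0.36, 1.12 and 0.68 in Tim4KO ID8 libraries, and it was negative in all 6 WT libraries, from -4.99 to -1.08. Tim4KO naive libraries thus spread more in these ratios than Tim4KO ID8 libraries did. Tim4KO naive 2 was also the library with the fewest counts, and its 12 glucocorticoid target genes summed to 2230 CPM, against 772 to 1580 CPM in the other 11 libraries. The part of either in the clock levels was not tested. By genotype, edgeR called none of those 12 target genes in naive or in ID8 cells, where 3 and 2 had an unadjusted p under 0.05. Of all 15943 tested genes, 999 and 1935 had one.

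**Figure D3:**
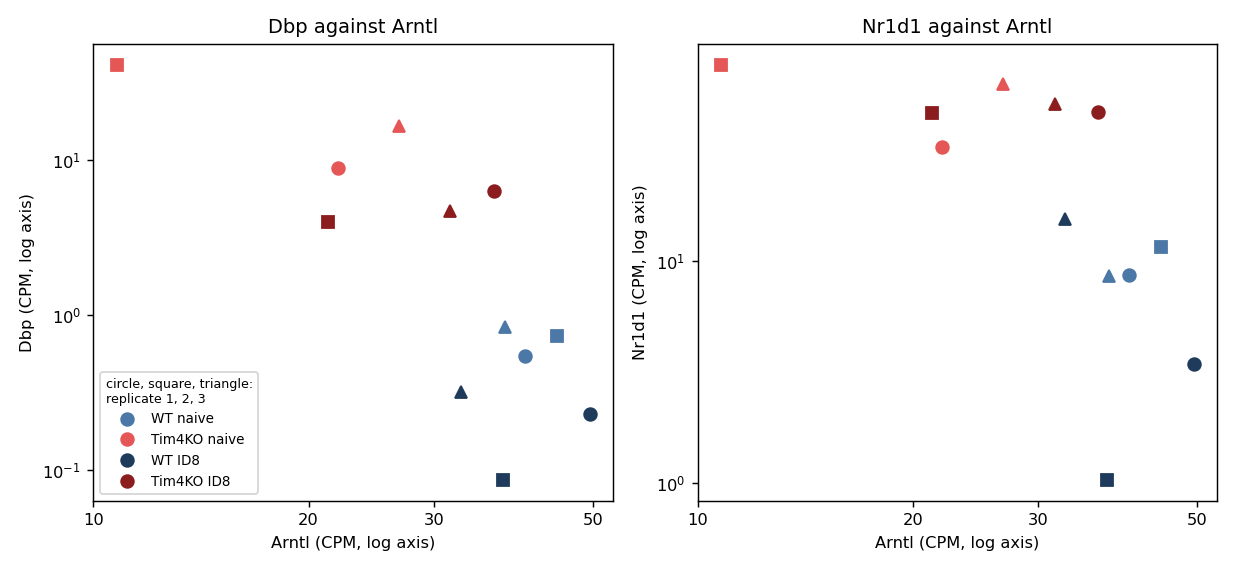
Dbp (left) and Nr1d1 (right) against Arntl in each of the 12 libraries, as CPM on log axes, coloured by group and shaped by replicate. Tim4KO naive 2 is the extreme point, with 41.5 CPM of Dbp and 10.8 CPM of Arntl, and the 6 WT points lie at 0.838 CPM of Dbp or less.

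Per kilobase of exon the members ranked differently in the genotypes. In WT naive cells Nfil3 was highest at 20.8 ± 1.98 CPM per kilobase (mean ± SD, n = 3), followed by Nr1d2 at 5.88 ± 1.63 and Arntl at 5.43 ± 0.459, which did not differ beyond their spread. Nr1d1 came next at 3.12 ± 0.549 and Per1 at 1.68 ± 0.662. Tef (1.28 ± 0.107) lay within the SD of Per1, and Cry1 (0.968 ± 0.264) was lower, with overlapping SDs between neighbours. Per3 (0.559 ± 0.093), Dbp (0.235 ± 0.0503) and Per2 (0.233 ± 0.116) were lowest, and the last 2 were level. In Tim4KO naive cells Nr1d2 (20.3 ± 9.75), Nr1d1 (18.6 ± 7.32) and Nfil3 (13.3 ± 5.88) led and were not separated by their spread. Tef (8.22 ± 4.71), Dbp (7.48 ± 5.69) and Per1 (6.01 ± 2.94) had lower means, within each other's spread and with SDs that met that of Nfil3. Arntl (2.64 ± 1.09) and Per3 (2.56 ± 1.26) were level. Per2 (1.16 ± 0.752) and Cry1 (0.554 ± 0.11) had lower means, and the SD of Per2 met those of Arntl, Per3 and Cry1.

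In challenged cells Nfil3 had the highest mean per kilobase in both genotypes, as in WT naive but not in Tim4KO naive cells. WT ID8 cells had 29 ± 5.33 CPM per kilobase of Nfil3 (mean ± SD, n = 3). Arntl (5.3 ± 1.15), Cry1 (3.2 ± 2.66), Nr1d2 (2.85 ± 2.02) and Nr1d1 (2.16 ± 2.5) came next and each overlapped its neighbour within the SDs. Tef (1.22 ± 0.238), Per1 (0.788 ± 0.113), Per2 (0.42 ± 0.232), Per3 (0.234 ± 0.0931) and Dbp (0.0708 ± 0.0394) had lower means, which lay within the SD of Nr1d1. Tim4KO ID8 cells had 17.4 ± 1.2 CPM per kilobase of Nfil3 and 15.6 ± 0.81 of Nr1d1, with SDs that met, then 11.3 ± 0.732 of Nr1d2. Tef (4.47 ± 0.0364) and Arntl (3.96 ± 1.03) did not differ beyond their spread, and the SDs of Per1 (2.3 ± 0.249) and Dbp (1.68 ± 0.412) met as well. Per3 (0.842 ± 0.038), Cry1 (0.758 ± 0.0993) and Per2 (0.574 ± 0.0883) were lowest. Lengths came from GENCODE vM21, which may differ from the annotation used for counting.

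The second question was how the clock genes changed when macrophages met and took up tumour cells. In WT cells Per1 and Per3 fell and Cry1 rose, and the other 7 members did not pass the test. That is 3 of 10 members, where 31.8% of the 15943 tested genes were called, 19.5% higher and 12.3% lower, so the share was near the background. The 7 genes of Dbp phase had a median log2 change, ID8 minus naive, of -1.01, and the 3 opposite genes 0.47, beside -0.04 over all tested genes. Per3 fell by 1.31 on the log2 scale (SE 0.39, edgeR adjusted p = 0.0207), from 5.37 ± 0.893 to 2.25 ± 0.894 CPM (mean ± SD, n = 3 each). Per1 fell by 1.12 (SE 0.38, edgeR adjusted p = 0.0391), from 9.48 ± 3.73 to 4.44 ± 0.639 CPM. All 3 WT ID8 libraries lay below all 3 WT naive libraries for both genes and for Dbp, where 21% of tested genes lay below in this way. Nfil3 lay wholly above, where 23.3% did, and was not called (0.47, SE 0.23, edgeR adjusted p = 0.128). The background of olfactory and vomeronasal receptor genes was lower after challenge too. It was 0.0569 to 0.147 CPM per kilobase in WT naive and 0.0011 to 0.0445 in WT ID8 libraries. This bears most on the members with low levels, and a fit with the background as a covariate is among the alternatives at the end.

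Deviations of same-numbered WT naive and WT ID8 libraries from their group means correlated at 0.423, 0.103 and 0.191. WT naive 2 correlated most with WT ID8 3, so a pairing by number is uncertain. The WT change was also fitted with the replicate number as a block. With the block in the fit to all 4 groups, Per3 stayed called (-1.33, edgeR adjusted p = 0.0359), while Per1 (-1.14, edgeR adjusted p = 0.0653) and Cry1 (1.55, edgeR adjusted p = 0.087) did not. Between the other pairs of groups, same-numbered libraries correlated at -0.498 to 0.22, so that fit also imposes a pairing that those groups did not show. With the block in a fit to the WT groups alone, Per1 (-1.16, edgeR adjusted p = 0.0381) and Per3 (-1.42, edgeR adjusted p = 0.0266) were called and Cry1 was not (1.19, edgeR adjusted p = 0.262).

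The Cry1 call in WT cells rested on few libraries. Its change was 1.72 (SE 0.58, edgeR adjusted p = 0.0399), with 10.1 and 19.8 CPM in WT ID8 1 and 2 and 2.1 CPM in WT ID8 3, which lay below every WT naive library. Without WT ID8 3 the change was 2.28 (edgeR adjusted p = 9.36e-07), and leaving out WT ID8 2 in its place gave 0.91 (edgeR adjusted p = 0.189). The call was lost in 11 of the 12 fits that each left out 1 library, all but the fit without WT ID8 3, where the edgeR adjusted p was 0.0532 to 0.189. Per3 lost its call without WT naive 1 or 3 and without WT ID8 2 or 3 (highest edgeR adjusted p 0.128, without WT ID8 3). Per1 lost it in 9 of the 12 fits (highest edgeR adjusted p 0.214, without WT ID8 3), and its change was -0.74 without WT naive 3.

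WT ID8 3 also decided the REV-ERB genes. With all libraries Nr1d1 changed by -0.42 (SE 0.72, edgeR adjusted p = 0.665) and Nr1d2 by -1.01 (SE 0.52, edgeR adjusted p = 0.16) in WT cells. Without WT ID8 3 the changes were -2.17 (edgeR adjusted p = 0.0156) and -1.78 (edgeR adjusted p = 0.0376). Dbp, with 2, 1 and 7 counts in the WT ID8 libraries, changed by -1.60 (SE 0.77, edgeR adjusted p = 0.124). Tef (-0.05, SE 0.33) and Arntl (-0.04, SE 0.27) changed by less than 1 SE, and Per2 by 0.79 (SE 0.56, edgeR adjusted p = 0.283), or 1.26 without WT ID8 3 (edgeR adjusted p = 0.0531).

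In Tim4KO cells Dbp, Per1 and Per3 fell with challenge, and none of the 10 genes rose. These 3 of 10 members stand beside 16.6% of tested genes called in either direction, 11.5% higher and 5.06% lower. All 7 genes of Dbp phase had a negative change, with a median of -0.98, and all 3 opposite genes a positive one, with a median of 0.42, beside -0.05 over all tested genes. Dbp fell by 2.14 on the log2 scale (SE 0.45, edgeR adjusted p = 0.00663), from 22.4 ± 17 to 5.02 ± 1.23 CPM. Because Dbp was picked for its genotype difference in the same naive libraries, that p is not independent of the choice. Per3 fell by 1.60 (SE 0.34, edgeR adjusted p = 0.00648), from 24.6 ± 12.1 to 8.09 ± 0.365 CPM. Per1 fell by 1.37 (SE 0.35, edgeR adjusted p = 0.0188), from 33.9 ± 16.5 to 13 ± 1.4 CPM. For these genes and for Per2 every Tim4KO ID8 library lay below every Tim4KO naive library, where 18.1% of tested genes did, and no member lay wholly above, where 23.7% did.

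The calls of Dbp and Per3 in Tim4KO cells held in all 12 fits that each left out 1 library, and the highest edgeR adjusted p was 0.0496 for Dbp and 0.0365 for Per3. Their size depended on Tim4KO naive 2: without it Dbp changed by -1.33 and Per3 by -1.23. Per1 stayed called in 6 of the 12 fits and lost its call without Tim4KO naive 1 or 2, WT ID8 3 or any 1 of the Tim4KO ID8 libraries (highest edgeR adjusted p 0.0956). Tef changed by -0.87 (SE 0.31, edgeR adjusted p = 0.0764), and without Tim4KO naive 1 it was called at -1.16 (edgeR adjusted p = 0.00347), while without Tim4KO naive 2 it was -0.31. Per2 changed by -0.98 (SE 0.51, edgeR adjusted p = 0.213), Nr1d2 by -0.84 (SE 0.50) and Nr1d1 by -0.25 (SE 0.65). Arntl changed by 0.57 (SE 0.28, edgeR adjusted p = 0.197), Cry1 by 0.42 (SE 0.62) and Nfil3 by 0.38 (SE 0.24). Nfil3 was called without Tim4KO naive 1 (0.80, edgeR adjusted p = 0.00915).

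**Figure D4:**
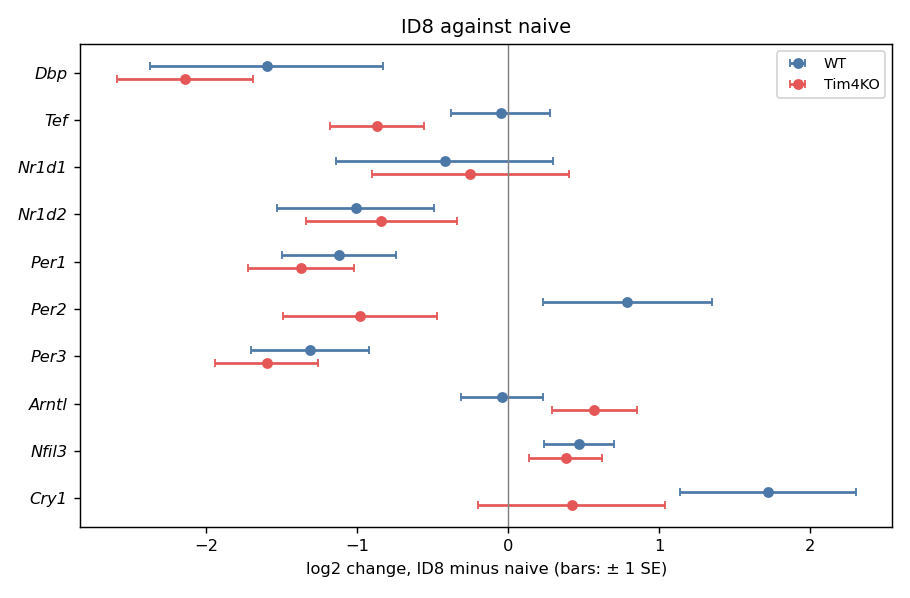
Log2 change of each clock gene between ID8 and naive cells, in WT (blue) and Tim4KO (red), with bars of 1 SE. Per1 and Per3 lie left of 0 in both genotypes, at -1.12 and -1.31 in WT and -1.37 and -1.60 in Tim4KO, and Per2 and Cry1 have the largest gaps between the genotypes.

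Of the 10 macrophage markers, edgeR called 4 higher (Adgre1, Icam2, Itgam and Cd5l) and 2 lower (Lyz2 and Prg4) in WT, and 3 higher (Icam2, Itgam and Cd5l) and 3 lower (Lyz2, Prg4 and Mertk) in Tim4KO, with medians of 0.29 and 0.21. Neutrophil markers summed to 9.86 to 28.3 CPM in ID8 and 7.32 to 8.28 CPM in naive libraries, and between 4 and 6 of the 6 genes were detected in each. The difference lay mainly in S100a8, which averaged 5.53 (naive) and 18 CPM (ID8) in WT and 6.14 and 15.9 CPM in Tim4KO. S100a9 was higher too. Mmp8 went from 1.64 to 0.669 CPM in WT and from 0.778 to 0.884 CPM in Tim4KO. Ly6g, Camp and Ngp averaged 0.256 CPM or less in every group. Mast cell markers summed to 2.3 to 9.53 CPM in ID8 and 13.3 to 39 CPM in naive libraries. Of 12 heat shock and temperature-response genes, edgeR called 8 higher and 1 lower in WT, where 19.5% of all tested genes were called higher and 12.3% lower, and 5 higher and none lower in Tim4KO, where 11.5% and 5.06% were. Of 12 glucocorticoid target genes it called 4 higher and 2 lower in WT, and 3 higher and 1 lower in Tim4KO, beside the same shares. Their part in the clock changes was not tested.

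Whether challenge changed the clock genes differently in the genotypes was tested by the interaction, the Tim4KO change minus the WT change. EdgeR called 0 of the 10 members and 0% of all tested genes, of which 1186 had an unadjusted p under 0.05 (DESeq2 called 4 genes and limma voom 0). DESeq2 and limma voom called 0 members as well, and 1 member had an unadjusted p under 0.05. That gene was Per2 (-1.77, SE 0.76, 95% interval -3.39 to -0.14, edgeR adjusted p = 0.668). The interval for Dbp ran from -2.71 to 1.64, for Nr1d1 from -2.02 to 2.37, for Per1 from -1.37 to 0.86 and for Per3 from -1.40 to 0.83. Those of Tef (-1.80 to 0.17) and Arntl (-0.24 to 1.46) also held 0. The intervals of Dbp and Nr1d1 reach past 1 unit on the log2 scale on both sides, so the comparison is loose for them. Cry1 (-1.30, SE 0.85, edgeR adjusted p = 0.714) was called when WT ID8 3 was left out (-1.85, edgeR adjusted p = 0.0192). Without that library the interaction of Nr1d1 was 1.94 (SE 0.63, edgeR adjusted p = 0.189) and that of Per2 -2.21 (SE 0.61, edgeR adjusted p = 0.0646).

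A further 22 genes of the clock and its output, listed from general knowledge, were examined, of which 21 passed the filter on low counts. In the genotype comparisons edgeR called none of them, in naive or in ID8 cells, and 1 and 2 had an unadjusted p under 0.05, beside 999 and 1935 of all 15943 tested genes. Their median log2 difference was -0.11 in naive and -0.03 in ID8 cells. Clock, the partner of Arntl, was abundant and even, with 54.2 ± 2.19 CPM (WT) and 63.5 ± 5.06 CPM (Tim4KO) in naive cells and 66.9 ± 7.4 CPM (WT) and 65.3 ± 3.03 CPM (Tim4KO) after challenge (mean ± SD, n = 3 each). Hlf, the relative of Dbp and Tef, was low throughout, with 14 counts or fewer in every library. Ciart, a repressor driven by E-boxes, had 4 to 37 counts.

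With challenge, 6 of these 21 genes were called in WT (3 higher, 3 lower) and 3 in Tim4KO (2 higher, 1 lower), beside 31.8% and 16.6% of all tested genes, so both shares were near the background. Noct, which encodes the phosphatase nocturnin, rose from 2.92 ± 0.444 to 27.4 ± 9.28 CPM in WT (log2 change 3.25, SE 0.36, edgeR adjusted p = 3.51e-05) and from 2.54 ± 1.71 to 13.6 ± 1.65 CPM in Tim4KO (2.33, SE 0.36, edgeR adjusted p = 0.000761). Timeless, which also serves in DNA replication, rose by 2.40 in WT (SE 0.29, edgeR adjusted p = 5.58e-05) and by 2.42 in Tim4KO (SE 0.29, edgeR adjusted p = 0.000121). Wee1, a cell cycle kinase under clock control, rose by 1.73 in WT (SE 0.37, edgeR adjusted p = 0.00359), and by 1.07 without WT ID8 3, where the cell cycle genes stood apart. With a background covariate it was 0.95 (edgeR adjusted p = 0.109). In Tim4KO its change was 1.10 (SE 0.37, edgeR adjusted p = 0.0542). Rora, the activator that competes with REV-ERB, fell from 20.6 ± 1.23 to 7.83 ± 2.05 CPM in WT (-1.38, SE 0.25, edgeR adjusted p = 0.00107) and from 16.6 ± 5.82 to 9.17 ± 1.36 CPM in Tim4KO (-0.85, SE 0.25, edgeR adjusted p = 0.0311). Rorb, a relative of Rora, fell by 2.42 in WT (SE 0.86, edgeR adjusted p = 0.0438), from 2.33 ± 0.594 to 0.484 ± 0.393 CPM. Timeless and Rora share 1.82% and 0.627% of their exons with antisense genes.

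Noct and Timeless stayed called in both genotypes in all 12 fits that each left out 1 library, and Rora did so in WT. In Tim4KO Rora was called in 7 of the 12 fits and lost its call without Tim4KO naive 2 or 3 or any 1 of the Tim4KO ID8 libraries (-0.64 without Tim4KO naive 3, edgeR adjusted p = 0.175). Rorb kept its call in 3 of the 12 WT fits, where its highest edgeR adjusted p was 0.103, and it changed by -0.48 with a background covariate. With the replicate block Rorb was not called in the fit to all groups (-2.42, edgeR adjusted p = 0.0763) or to the WT groups alone (-2.67, edgeR adjusted p = 0.053).

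**Figure D5:**
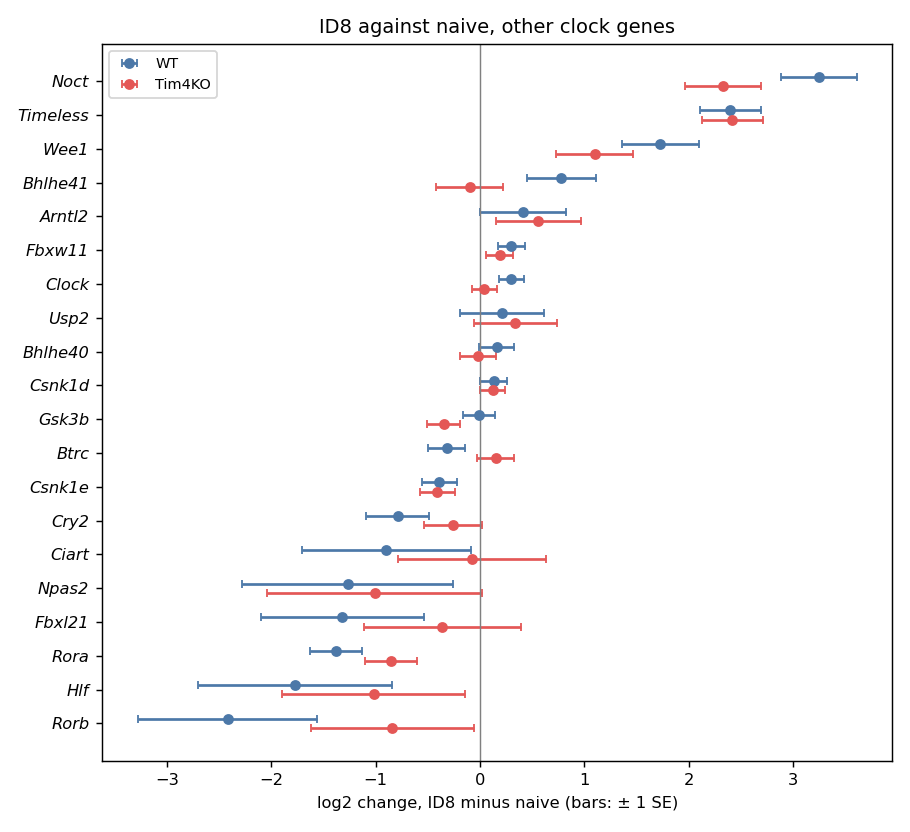
Log2 change between ID8 and naive cells of further clock genes, in WT (blue) and Tim4KO (red), with bars of 1 SE. Noct, Timeless and Wee1 stand to the right of 0 in both genotypes, at 3.25, 2.40 and 1.73 in WT, and Rora to the left, at -1.38 in WT and -0.85 in Tim4KO.

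The genes whose level across the 12 libraries was most like that of Dbp were Cabin1, Ski, Fam160b1, Mau2 and Zc3h3, with Pearson coefficients of log2 CPM from 0.906 to 0.945 among 9649 candidates. All 12 points share the 4 group means, so the coefficient in part reflects those, and it carries no test. For deviations from the group means the coefficients of these genes with Dbp ran from 0.228 (Zc3h3) to 0.763 (Mau2). The levels of these genes moved little: Cabin1 averaged 44.2 (WT) and 54.7 CPM (Tim4KO) in naive cells and 41.2 (WT) and 51.3 CPM (Tim4KO) after challenge. Ski averaged 139, 179, 127 and 161 CPM in the same order. The genes most like Arntl were Lyrm1, Mrpl43, Tceal8, Cep44 and Ifitm10, with coefficients from 0.816 to 0.879, and from 0.619 to 0.82 for deviations from the group means. Lyrm1 averaged 5.13, 3.44, 5.72 and 4.27 CPM in that order, so its 4 means ranked as those of Arntl did except that WT ID8 came above WT naive.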

How the data were processed

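The deposited table held raw counts of reads per Ensembl gene for 12 libraries, read as raw from the values. Per the submitters' processing notes, FastQC and STAR 2.5 were used, and the builds mm10 and GRCm39 are listed without roles. The counting program, annotation and use of strand are not given in the sources used here. Per the labels' protocols the cDNA was PCR-amplified (SMART-Seq mRNA LP kit), so floors in counts cover counting error only. All columns were matched to libraries by name, and 52029 of 57010 identifiers had a GENCODE vM21 name.

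All tested genes (15943, filterByExpr) were fitted together with edgeR 4.0.16 in R 4.3.3: TMM scaling, 1 mean per group, robust quasi-likelihood F tests, 8 residual degrees of freedom, Benjamini-Hochberg adjustment over all tested genes and calls at an adjusted p under 0.05, two-sided. SE was taken as |log2 change| over the root of F. The fit was tested on simulated data. Ratios used log2 CPM with a prior count of 2. Background was summed over 1946 olfactory and vomeronasal receptor genes with a mean of at most 1 CPM.

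Named genes were all 10 members, other clock genes called with challenge (up to 4 in each direction), genes with overlapping exons, the 5 genes most correlated with Dbp and with Arntl (mean normalized count of at least 50), and Timd4. Clock, Hlf, Ciart and the examples of similar genes were picked for description after their values were seen. The values of 1 called gene are not reported here. Members and lists were chosen with earlier results of these data known. The alternatives were DESeq2 1.42.0 and its size factors, upper-quartile scaling, no filter, voom of limma 3.58.1, a fit to the 2 groups compared, the replicate number as a block, a background covariate, and leaving out each library. Deviations of same-numbered libraries from their group means correlated at 0.423, 0.103 and 0.191 between WT naive and WT ID8, each over 0.1. On that ground the numbers were used to pair these groups, from the data and not the labels. WT naive 2 correlated most with WT ID8 3, so the pairing is uncertain. No other pair of groups had every such correlation over 0.1. A block in a fit to the WT groups alone was added after seeing the data.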

Additional observations from a re-analysis of the deposited data

How the results depend on the processing

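Under every alternative run for them, the genotype medians of the 7 genes of Dbp phase kept their sign (1.85 to 2.55 in naive cells and 1.78 to 1.94 in ID8 cells when single libraries were left out). In WT challenge the number of members called was 3; it was 5 without a filter on low counts, 0 by limma voom, 1 with the replicate block (2 with it in the WT groups alone) and 1 with the background covariate, and 0 to 3 when single libraries were left out (0 without WT naive 3 or WT ID8 2). In Tim4KO challenge it was 3 (3 with the replicate block, 4 by DESeq2 and 2 by limma voom), 5 without the filter, and 2 to 4 when single libraries were left out. In the interaction it was 0, and 0 to 1 when single libraries were left out (1, Cry1, without WT ID8 3). Between other pairs of groups, the deviations of same-numbered libraries correlated at -0.498 to 0.22. All tested genes called in the naive genotype comparison were 7; they were 3 with DESeq2's size factors, by voom or with the replicate block, 2 in the fit to 2 groups, 59 without the filter, 42 by DESeq2 and 1 to 29 when single libraries were left out. In the ID8 genotype comparison the 9 became 264 without the filter, 227 by DESeq2, 177 with the covariate, 14 with the block and 1 to 997 (997 without WT ID8 3). The 5067 of WT challenge became 3102 in the fit to 2 groups, 3081 with the block in those groups and 3362 without WT naive 3; the 2642 of Tim4KO challenge became 1222 without Tim4KO naive 2. The 0 of the interaction became 73 without the filter, 2 with the covariate and 368 without WT ID8 3. The causes of these shifts were not tested. Upper-quartile scaling moved the median change of all genes in WT challenge from -0.04 to -0.28 and the share of calls that were higher from 61.3% to 33.9%; in Tim4KO that share went from 69.5% to 48.7%. Depth limits Dbp in WT cells, at 1 to 12 counts per library.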
